A study of Mus musculus with 192 samples.

Results

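Pck1, G6pc, Fbp1, Pdk4, Irs2, Igf1, Igfbp1 and Igfbp2 were followed by gene name through 9 tissues of mice that had flown on the International Space Station or stayed on the ground. They are 8 of the 54752 genes quantified, chosen for what they do in glucose production and in the response to insulin, and each name matched 1 gene. The mice were male C57BL/6J, either wild type (WT) or carrying a null allele of Nfe2l2, the gene for the transcription factor Nrf2 (Nrf2-KO). The labels give all of them an age of 12 weeks. Per the authors, the flight mice were about that age when ready for transport, so they were older at dissection. The flight groups (FL_WT, FL_KO) lived in single cages in orbit for about a month and were dissected after their return to Earth in California. The ground groups (GC_WT, GC_KO) lived in the same kind of cage in Japan later in the year, so that flight, landing, site and date cannot be told apart. The null allele is carried in every cell of the knockout and not in a chosen cell type, and the knockout mice had been screened for a congenital vessel that bypasses the liver. Liver (Liv), kidney (Kid), epididymal white fat (eWAT), interscapular brown fat (iBAT), thymus (Thy), spleen (Spl), cerebrum (Cbr) and 2 bones, the temporal bone (TpB) and the mandible (MdB), were sequenced from 6 mice per group, with 3 per group in MdB and Kid. Flight mouse 04, a knockout with a severe intestinal hemorrhage, was left out, which left 184 of 192 libraries and 5 FL_KO mice, or 2 in MdB.

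Liver and kidney make glucose from lactate, glycerol and amino acids. Pck1 encodes the cytosolic phosphoenolpyruvate carboxykinase at the entry of that route, Fbp1 encodes fructose-1,6-bisphosphatase in its middle, and G6pc encodes the catalytic subunit of glucose-6-phosphatase, which frees glucose for export. In fat, Pck1 serves the making of glycerol for triglyceride. Pdk4, a kinase that shuts off pyruvate dehydrogenase, spares glucose in the fasted state. Irs2 is an adaptor of the insulin receptor, Igf1 is the growth factor that liver releases under growth hormone, and Igfbp1 and Igfbp2 bind IGF-1 in blood. Insulin lowers the transcription of Pck1, G6pc, Igfbp1, Irs2 and Pdk4 in liver, while fasting, glucagon and glucocorticoids raise several of them.

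The sequences in front of 5 of these genes are shown because each holds a match to a motif of the insulin, cAMP or antioxidant response. They are RefSeq windows of GRCm38.p6, 5′ to 3′ on the strand of the gene, cut where the gene's own annotation begins. Capitals mark a match to CAAAACA or its reverse complement (the insulin response sequence), to TGACNNNGC or its reverse complement (the core of the antioxidant response element that Nrf2 binds), or in Pck1 to TTACGTCA (the cAMP response element of that gene, a motif added after the sequences had been seen).
Pck1, chr2:173152823-173153047, plus strand: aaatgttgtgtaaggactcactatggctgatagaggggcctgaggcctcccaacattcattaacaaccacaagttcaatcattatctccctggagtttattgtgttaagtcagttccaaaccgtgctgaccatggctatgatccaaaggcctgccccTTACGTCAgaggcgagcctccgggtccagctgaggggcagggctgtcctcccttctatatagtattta
G6pc, chr11:101367466-101367560, plus strand: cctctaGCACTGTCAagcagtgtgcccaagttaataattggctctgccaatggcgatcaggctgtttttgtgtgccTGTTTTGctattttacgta
Fbp1, chr13:62888283-62888532, minus strand: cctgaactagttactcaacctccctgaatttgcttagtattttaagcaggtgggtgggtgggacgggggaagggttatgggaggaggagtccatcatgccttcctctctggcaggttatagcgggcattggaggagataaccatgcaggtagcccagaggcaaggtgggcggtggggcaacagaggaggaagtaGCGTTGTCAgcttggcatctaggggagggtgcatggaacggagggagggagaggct
Irs2, chr8:11008930-11009179, minus strand: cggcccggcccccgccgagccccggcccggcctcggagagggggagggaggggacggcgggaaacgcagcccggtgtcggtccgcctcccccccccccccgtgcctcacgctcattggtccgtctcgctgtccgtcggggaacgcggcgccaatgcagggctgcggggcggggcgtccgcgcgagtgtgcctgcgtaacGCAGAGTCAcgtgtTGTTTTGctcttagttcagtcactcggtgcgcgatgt
Igfbp1, chr11:7197537-7197781, plus strand: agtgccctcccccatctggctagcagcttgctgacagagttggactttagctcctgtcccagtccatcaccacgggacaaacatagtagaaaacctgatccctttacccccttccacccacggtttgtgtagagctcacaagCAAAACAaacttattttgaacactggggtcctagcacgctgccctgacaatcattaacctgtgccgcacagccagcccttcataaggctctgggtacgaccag

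Both strands were searched in the 250 bases before each RefSeq start. The insulin response sequence was found in G6pc, Irs2 and Igfbp1, and 5.56% of 32851 mouse promoter windows of the same length held it. The antioxidant core was found in G6pc, Fbp1 and Irs2, against 10.2% of all windows, and TTACGTCA in Pck1, against 0.447%. The FOXO motif GTAAACA (3.17% of all windows) and the full cAMP response element TGACGTCA (1.55%) matched none of the members' windows. These matches describe letters in a window and say nothing of binding. The remaining genes lie, in the GENCODE annotation of GRCm38, at chr6:5483351-5496309 (Pdk4, minus strand), chr10:87858265-87937042 (Igf1, plus strand) and chr1:72824503-72852474 (Igfbp2, plus strand).

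Library totals, ran from 8008000 to 16310000 expected counts (median 14470000), and thymus, the one tissue sequenced after removal of ribosomal RNA and not from poly(A) RNA, had the lowest (8008000 to 10560000). Transcripts of Nfe2l2 were lower in every Nrf2-KO library than in every WT library of all 9 tissues. The defining markers of each labelled tissue were present. In bulk tissue, fewer cells of a type and less RNA per cell cannot be told apart.

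Levels are given as TPM, RSEM's abundance per transcript length and library, on which genes can be compared. Across the tissues of GC_WT mice, the 3 enzymes of glucose production had different reach. G6pc stood at 424 ± 64.4 TPM (SD, n = 3) in kidney and 161 ± 67.0 TPM (SD, n = 6) in liver, ranges that did not overlap, and at 0.235 TPM or less on average in the other tissues. Fbp1 stood at 749 ± 47.1 TPM in kidney (n = 3) and 716 ± 132 TPM in liver (n = 6), with overlapping ranges, and below 1 TPM on average elsewhere. Pck1 was as high in both fats as in the glucose-producing organs, with means of 1281 ± 455 TPM in eWAT, 1194 ± 446 in liver, 1107 ± 165 in kidney and 1051 ± 283 in iBAT, and neighbours in that order overlapped. The step to TpB, at 55.0 ± 25.9 TPM, was a step between separate ranges.

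Pdk4 was highest in iBAT (297 ± 122 TPM, n = 6) and lowest in liver (1.75 ± 0.834 TPM) and thymus (0.728 ± 0.247 TPM). Irs2 had the flattest profile, from 43.3 ± 7.02 TPM in cerebrum to 6.24 ± 2.36 TPM in liver, and in that order only the step from spleen to kidney fell between separate ranges. Igf1 led in liver (521 ± 54.2 TPM), followed by eWAT (256 ± 39.7) and spleen (63.1 ± 8.84), each range apart from the next. Igfbp2 also led in liver (391 ± 56.5 TPM), ahead of TpB (108 ± 30.7), MdB (80.3 ± 23.6) and cerebrum (57.1 ± 3.98). Igfbp1 was a liver transcript with a wide spread, 39.1 ± 33.5 TPM, and kidney followed with 3.11 ± 0.998 TPM.

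**Figure D1:**
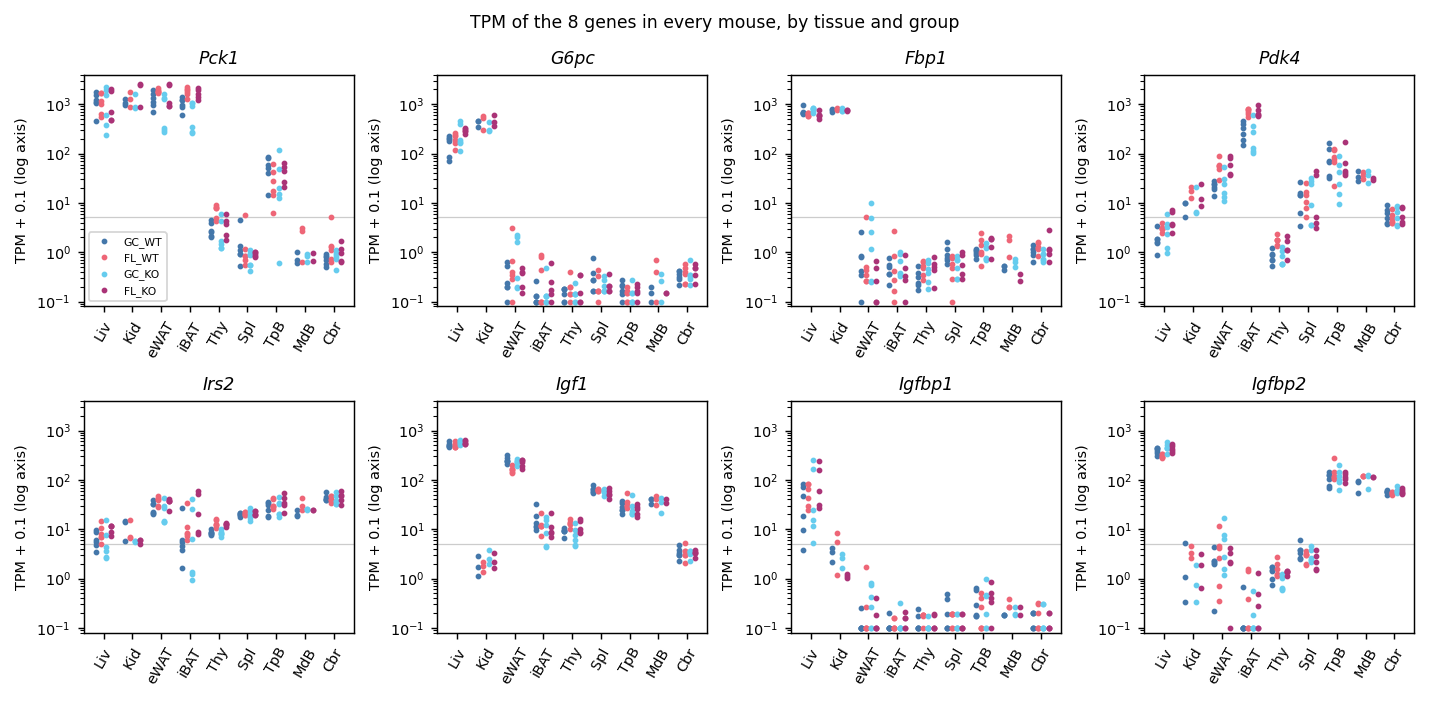
TPM of each of the 8 genes in the 9 tissues, on a log axis, with points for single mice of the 4 groups. G6pc and Fbp1 stand far higher in liver and kidney than in the other tissues, Pck1 is near 1000 TPM in liver, kidney and both fats, and Irs2 is present in every tissue.

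Flight was compared with ground within each genotype by edgeR's quasi-likelihood test on the counts, fitted over all genes of a tissue, and a gene was called at a Benjamini-Hochberg adjusted p under 0.05. A fold change is given as log2 of flight over ground ± its standard error (SE). Of 72 pairs of member and tissue, 56 passed the filter on low counts and were tested, all 8 members in liver and kidney. In WT mice 5 of the 56 were called, 4 higher and 1 lower in flight, and in Nrf2-KO mice 6 of the 56, 5 higher and 1 lower. These calls lay in thymus, both fats and, for Fbp1 alone, in liver. No member was called by edgeR in kidney, bone, spleen or cerebrum in either genotype. Over all 56 pairs, 14 in WT and 9 in KO had an unadjusted p under 0.05 in edgeR, and DESeq2 called 6 and 7. Limma, which here and below tested only genes of at least 5 TPM in a group, called 7 and 7.

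The share of all tested genes called in the same comparisons was 22.8% (WT) and 38.2% (KO) in thymus, 19.2% and 33.5% in iBAT, 13.4% and 7.71% in eWAT, and 3.45% and 3.34% in liver. Among the members, 3 and 2 of 5 were called in thymus, 0 and 2 of 5 in iBAT, 2 and 1 of 7 in eWAT, and 0 and 1 of 8 in liver. The background was 2.26% and 0.668% in spleen, 0.119% and 0.159% in kidney, 0.0244% and 0.0061% in cerebrum, and 0% in both bones. Of all tested genes, 35.7% (WT) and 46.8% (KO) in thymus had an unadjusted edgeR p under 0.05. The same share was 33% and 43.2% in iBAT, 26.9% and 23.3% in eWAT, and 16.7% and 15.4% in liver. It was 17% and 13% in spleen, 6.64% and 12.8% in kidney, 8.68% and 3.48% in MdB, 3.71% and 2.67% in TpB, and 3.35% and 5.52% in cerebrum.

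**Figure D2:**
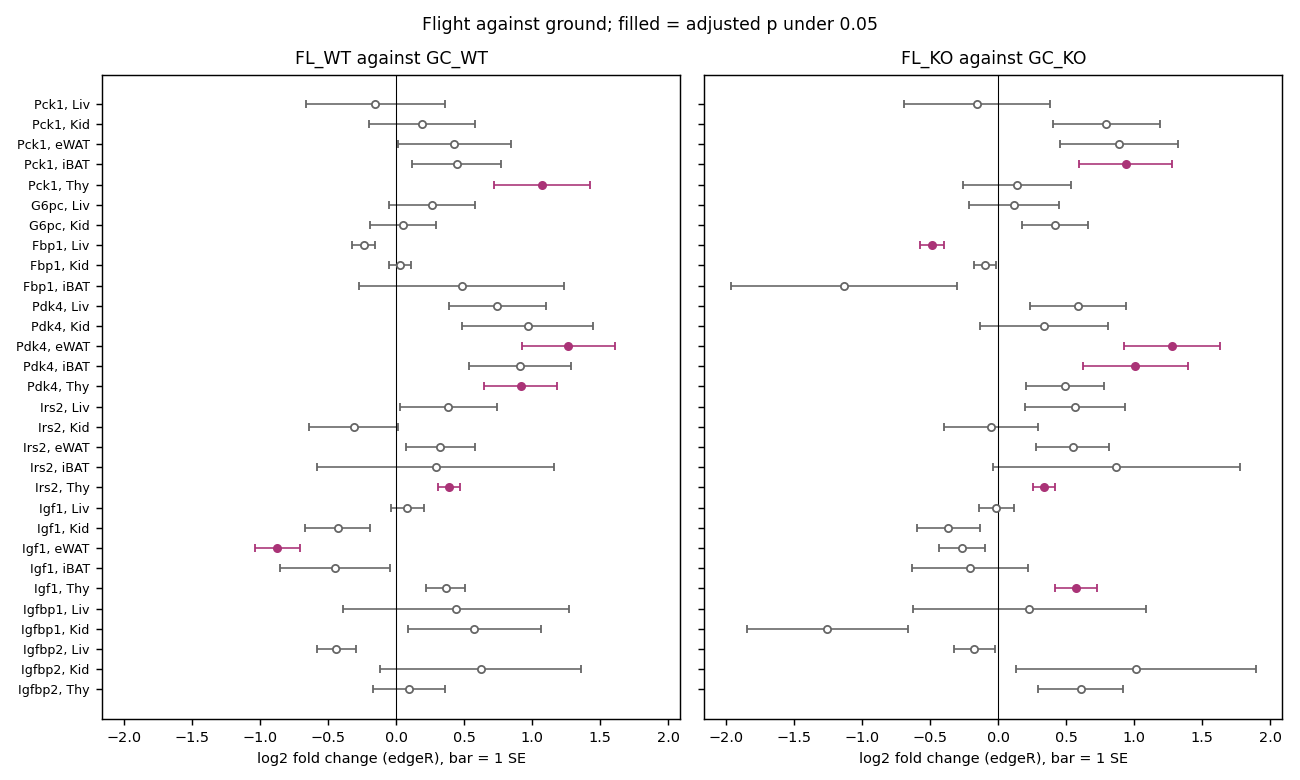
Log2 fold change of flight over ground with its SE in liver, kidney, both fats and thymus, WT and Nrf2-KO side by side, with called values filled and the low transcripts G6pc, Fbp1 and Igfbp2 of eWAT not drawn. The 9 called values above 0 belong to Pck1, Pdk4, Irs2 and Igf1 in fat and thymus, and the 2 below 0 to Igf1 in eWAT (WT) and Fbp1 in liver (KO).

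Of the gluconeogenic enzymes in liver, only Fbp1 was called between flight and ground, and only in Nrf2-KO mice. Pck1 had a wide spread within every group and ran from 455 through a median of 1162 to 1730 TPM in GC_WT, from 540 through 1089 to 1675 in FL_WT, and from 241 through 1079 to 2212 in GC_KO. The FL_KO mice had 2078, 1888, 683, 474 and 490 TPM of Pck1. All 4 ranges overlapped, and flight over ground was -0.15 ± 0.51 in WT (edgeR adjusted p = 0.931) and -0.16 ± 0.54 in KO (0.941).

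G6pc ran from 69.7 through 186 to 227 TPM in liver of GC_WT, and from 120 through 209 to 263 in FL_WT. In GC_KO it ran from 114 through 177 to 450 TPM, and the FL_KO mice had 291, 328, 251, 321 and 292. Every FL_KO mouse but 1 was above every FL_WT mouse, yet FL_KO over FL_WT was 0.48 ± 0.33 and not called (edgeR adjusted p = 0.492). Flight over ground was 0.26 ± 0.32 in WT (adjusted p = 0.758) and 0.12 ± 0.33 in KO (0.922).

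Fbp1 was lower in flown Nrf2-KO livers. GC_KO mice ran from 662 through a median of 808 to 824 TPM, and the FL_KO mice had 607, 588, 614, 510 and 756 TPM. Of the 5 FL_KO livers, 4 lay below every GC_KO liver and the fifth inside their range. The log2 fold change was -0.49 ± 0.088 (edgeR adjusted p = 0.00237), and Fbp1 was called in each of 23 fits with 1 mouse left out. In WT livers Fbp1 ran from 623 through 664 to 980 TPM on the ground and from 576 through 631 to 678 in flight, with overlapping ranges and -0.24 ± 0.084 (adjusted p = 0.118). The difference between the genotypes' responses was not called by edgeR for any member.

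Kidney, the other site of glucose output, was measured in 3 mice per group. Pck1 was at 976, 1053 and 1292 TPM in the GC_WT kidneys and at 876, 1297 and 1793 in FL_WT, and at 833, 878 and 1646 in GC_KO against 886, 2495 and 2628 in FL_KO. The highest kidneys were flown knockouts, but the ranges overlapped, and flight over ground in KO was 0.79 ± 0.39 (edgeR adjusted p = 0.419). Fbp1 stayed between 702 and 836 TPM in all 12 kidneys, with fold changes of 0.023 ± 0.081 in WT and -0.095 ± 0.081 in KO. G6pc ran from 282 to 599 TPM over the same kidneys, and its fold changes were 0.047 ± 0.24 and 0.41 ± 0.24, neither called.

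**Figure D3:**
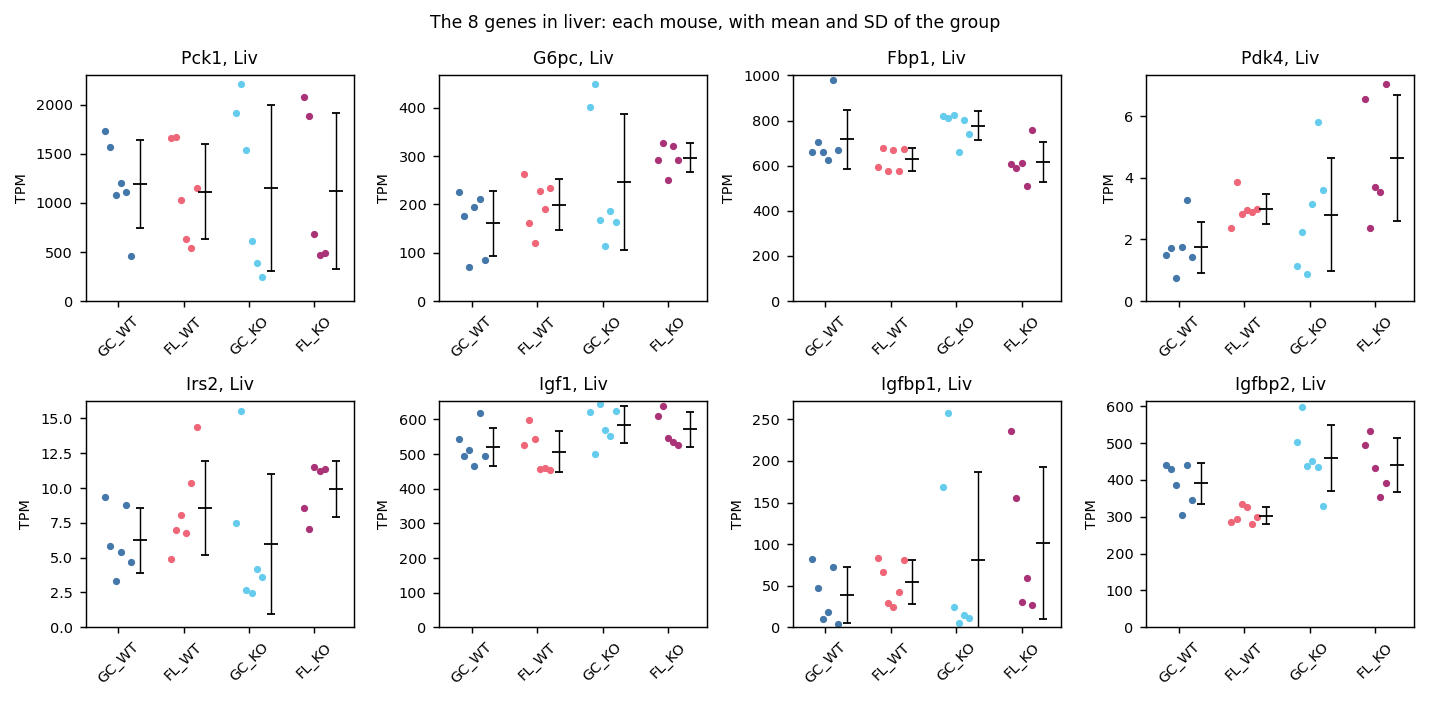
TPM of the 8 genes in liver, 1 point per mouse in the 4 groups, with the group mean as a black line and its SD as the bar. Pck1 and Igfbp1 spread over a wide range inside each group, while Fbp1 is lower in 4 of 5 FL_KO mice than in every GC_KO mouse.

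Outside liver and kidney, Pck1 was higher in flown brown fat of knockouts and in flown thymus of wild types. In iBAT, GC_KO ran from 263.9 through a median of 639.3 to 1052 TPM, and the FL_KO mice had 2130, 1954, 1644, 1203 and 1385 TPM. All 5 flown mice lay above the ground range, with a log2 fold change of 0.94 ± 0.34 (edgeR adjusted p = 0.0385). GC_WT ran from 616.5 through 1089 to 1419 TPM and FL_WT from 1257 through 1825 to 2204, ranges that overlapped, with 0.44 ± 0.33 (adjusted p = 0.369). In WT limma on log2(TPM + 1) called it (0.80, adjusted p = 0.0338), and DESeq2 did not (0.365). The edgeR fold change is smaller than the gap in TPM because the scalings differ. On the log2(TPM + 1) scale the median of all iBAT genes was 0.309 higher in flight in WT and 0.434 in KO, against 0.023 and 0.041 with the trimmed mean scaling of the main test. The Pck1 call in iBAT was lost when any 1 of flight mice 01, 02 and 09 or ground mice 09, 11 and 12 was left out (adjusted p from 0.0542 to 0.101), with only the 2 groups compared in the fit (0.112), and with no filter on low counts (0.0687).

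Skeletal muscle transcripts entered some flown iBAT libraries. Acta1, the actin of skeletal muscle, was over 100 TPM in flight mice 06, 08 and 11 (1838, 913.9 and 2622 TPM) and at 20.85 TPM or less in every ground iBAT. Without those 3 libraries Pck1 in KO iBAT was still called, at 1.06 (adjusted p = 0.0363). The summed TPM of the adipocyte markers Adipoq, Plin1, Cidec and Lep was also higher in flown iBAT, at 1870 to 2750 in GC_WT and 2426 to 3705 in FL_WT, and at 1609 to 1899 in GC_KO and 2327 to 2629 in FL_KO, where the ranges were apart. These sums are in TPM, a scale on which the median of all iBAT genes was also higher in flight. That median was up by 0.309 in WT and 0.434 in KO in log2(TPM + 1). The part of muscle and adipocyte transcripts in the Pck1 and Pdk4 values was not tested.

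In eWAT, where Pck1 and the triglyceride store meet, the pattern had the same sign but was not called. GC_WT ran from 690 through 1230 to 1951 TPM of Pck1 and FL_WT from 1684 through 1822 to 2124, with overlap and 0.43 ± 0.42 (edgeR adjusted p = 0.565). GC_KO ran from 275.5 through 796.4 to 1583 TPM, and the FL_KO mice had 2578, 2498, 938.7, 1045 and 901.5. The first 2 of these lay above every ground mouse and the other 3 inside the ground range, with 0.89 ± 0.44 (adjusted p = 0.222).

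In thymus Pck1 was a rare transcript. It ran from 1.96 through 2.545 to 4.36 TPM in GC_WT and from 4.26 through 7.845 to 9.1 in FL_WT, so that the ranges met at their edges, and the fold change was 1.07 ± 0.35 (edgeR adjusted p = 0.0296). In KO, GC_KO ran from 1.12 through 1.49 to 5.84 TPM and the FL_KO mice had 3.56, 2.16, 1.66, 5.83 and 4.26, with 0.14 ± 0.40 (adjusted p = 0.811). The WT call was lost in 8 of 23 fits with 1 mouse left out, those without flight mouse 03, 05, 08 or 10 or ground mouse 05, 06, 08 or 10 (adjusted p from 0.0505 to 0.0663), and when flight mouse 04 was included (0.135). The summed TPM of 4 adipocyte markers (Adipoq, Plin1, Cidec and Lep) in these thymi ran from 8.66 to 20.24 in GC_WT, 10.42 to 30.19 in FL_WT, 3.16 to 16.69 in GC_KO and 5.54 to 29.29 in FL_KO, with none of the 4 at 0 throughout a group. The part of fat attached to the thymus in the Pck1 and Pdk4 values there was not tested.

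Pdk4 was the member with the most calls, and all of them were higher in flight. In eWAT, GC_WT ran from 13.6 through 22.35 to 27.59 TPM and FL_WT from 28.72 through 56.4 to 87.47, with no overlap and 1.27 ± 0.34 (edgeR adjusted p = 0.0156). GC_KO ran from 11.02 through 19.75 to 53.39 TPM, and the FL_KO mice had 88.14, 79.88, 36.82, 59.71 and 38.31. These overlapped the highest ground mouse, and the fold change was 1.28 ± 0.35 (adjusted p = 0.0275). The KO call was lost without flight mouse 01 or 02 or ground mouse 09 or 11 (adjusted p from 0.061 to 0.0772) and with only the 2 groups in the fit (0.0882), while the WT call remained in 23 of 23 such fits. Albumin (Alb) was over 100 TPM in eWAT of 5 mice, flight WT mouse 05, ground WT mouse 10 and ground knockouts 01, 02 and 09. Without those libraries the KO fold change was 1.84 (edgeR adjusted p = 0.0177). That refit left only mice 04, 11 and 12 in GC_KO and took no mouse from FL_KO.

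In iBAT, its main site, Pdk4 ran from 151.1 through 291 to 457.2 TPM in GC_WT and from 539.1 through 736.7 to 795.4 in FL_WT. These ranges did not overlap, yet the fold change of 0.91 ± 0.37 was not called (edgeR adjusted p = 0.0918). Limma on log2(TPM + 1) called it (1.34, adjusted p = 0.00262), as did edgeR with only the 2 groups in the fit (0.0255). DESeq2 did not (0.0887), nor did edgeR under RLE scaling (0.0946), with no filter on low counts (0.148) or without the libraries rich in Acta1 (0.156). With 1 mouse left out it was called in 1 of 23 fits. GC_KO ran from 103.1 through 199.7 to 613.9 TPM of Pdk4, and the FL_KO mice had 957, 777.9, 567.5, 608 and 648.1, partly inside the ground range, with 1.01 ± 0.39 (adjusted p = 0.0494). This last call sat at the threshold. It remained in 4 of 23 fits with 1 mouse left out, whose adjusted p ran from 0.00353 to 0.128, and was lost without the 3 libraries rich in Acta1 (0.0619), under RLE scaling (0.0533), with no filter on low counts (0.0875) and with only the 2 groups in the fit (0.114).

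In thymus Pdk4 was again low, from 0.43 through 0.695 to 1.13 TPM in GC_WT and from 1.23 through 1.645 to 2.21 in FL_WT. The ranges were apart, with 0.91 ± 0.27 (edgeR adjusted p = 0.0152), and the call was lost when flight mouse 04 was included (0.0528). In KO thymus the fold change was 0.49 ± 0.29 (adjusted p = 0.187). In kidney the 3 FL_WT mice had 12.55, 17.54 and 21.32 TPM of Pdk4 against 5.17, 9.83 and 9.92 in GC_WT. The ranges were apart, but with 3 mice per group 0.96 ± 0.48 was not called (adjusted p = 0.790). In liver Pdk4 ran from 0.76 through 1.61 to 3.28 TPM in GC_WT and from 2.37 through 2.935 to 3.85 in FL_WT, with 0.74 ± 0.36 (adjusted p = 0.292), and the KO value was 0.58 ± 0.35 (0.470).

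Irs2, the insulin receptor's adaptor, was higher in flown thymus of both genotypes. GC_WT thymi ran from 7.65 through 8.445 to 9.96 TPM and FL_WT from 10.33 through 12.45 to 16.37. GC_KO ran from 7.0 through 8.005 to 9.91 TPM, and the FL_KO mice had 12.86, 11.97, 10.84, 12.93 and 13.28. In both genotypes the ranges were apart. The fold changes were 0.39 ± 0.079 (edgeR adjusted p = 0.00107) and 0.33 ± 0.083 (0.00271), and both calls remained in 23 of 23 fits with 1 mouse left out. Cell markers of these thymi are given beside the values. The summed TPM of 3 T cell markers (Cd3e, Cd8a and Lck) ran from 855.5 to 995.5 in GC_WT, 710.4 to 914.7 in FL_WT, 724.0 to 992.9 in GC_KO and 669.7 to 738.7 in FL_KO, and that of 3 macrophage markers (Adgre1, Cd68 and Csf1r) from 27.81 to 38.08, 36.2 to 67.84, 22.52 to 30.43 and 36.69 to 49.06. The macrophage ranges were apart in KO and the others overlapped. None of these markers was at 0 throughout a group, and their part in the thymus values of Irs2 and Igf1 was not tested.

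In liver Irs2 ran from 3.36 through 5.62 to 9.36 TPM in GC_WT, from 4.9 through 7.53 to 14.36 in FL_WT, and from 2.45 through 3.885 to 15.53 in GC_KO. FL_KO livers had between 7.06 and 11.48 TPM. All ranges overlapped, with 0.38 ± 0.35 in WT and 0.56 ± 0.37 in KO, neither called by edgeR. Without ground knockout 02, the highest of its group, the KO value was 1.13 and called (adjusted p = 0.0331). In knockout eWAT, Irs2 was likewise at 0.55 and not called (adjusted p = 0.221), and at 0.82 and called without ground knockout 02 (0.0389). In iBAT the spread of Irs2 inside groups was wide, from 0.85 to 41.06 TPM inside GC_KO alone. In KO iBAT flight over ground was 0.87 ± 0.91 (edgeR adjusted p = 0.489), and DESeq2 did not call it (0.497). Limma called it, at 1.81 on log2(TPM + 1) (0.041) and on log2(TPM + 0.1) as well (0.0326).

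Igf1 was called lower in eWAT and higher in thymus, and was not called in liver, the source of the circulating hormone. In liver it ran from 465.8 through 502 to 618.5 TPM in GC_WT and from 453.6 through 493 to 599.3 in FL_WT. GC_KO livers ran from 499.6 through 595.2 to 643.7 TPM of Igf1, and FL_KO livers had 611.1, 638, 546.5, 533.8 and 527.3. The ranges overlapped almost wholly, with 0.081 ± 0.12 in WT and -0.016 ± 0.13 in KO.

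In eWAT, Igf1 ran from 206.8 through 245.6 to 323.3 TPM in GC_WT and from 140.2 through 160.6 to 198.3 in FL_WT. Every flown WT mouse lay below every ground WT mouse, with -0.88 ± 0.16 (edgeR adjusted p = 0.00101) and the call held in 23 of 23 fits with 1 mouse left out. The macrophage markers summed to 103.7 to 141.4 TPM in these GC_WT fats and 145.1 to 296.9 in FL_WT, and 3 endothelial markers (Pecam1, Kdr and Cdh5) to 307.6 to 406.4 and 446.8 to 593.9, higher in flight and apart, and their part in the Igf1 value was not tested. GC_KO ran from 187.7 through 234 to 261.7 TPM, and the FL_KO mice had 168, 193.9, 256.9, 248.7 and 226.3, with overlap and -0.27 ± 0.17 (adjusted p = 0.374). The difference between the genotypes' responses was 0.61 ± 0.235 and not called (adjusted p = 0.508). In thymus Igf1 was called in KO: GC_KO ran from 4.41 through 6.605 to 13.03 TPM and FL_KO mice had 8.87, 8.33, 14.56, 15.96 and 9.86, with overlap and 0.57 ± 0.15 (adjusted p = 0.00508). GC_WT thymi ran from 6.6 through 8.945 to 10.38 TPM and FL_WT from 10.11 through 12.89 to 16.27, with 0.36 ± 0.14 (adjusted p = 0.0689).

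**Figure D4:**
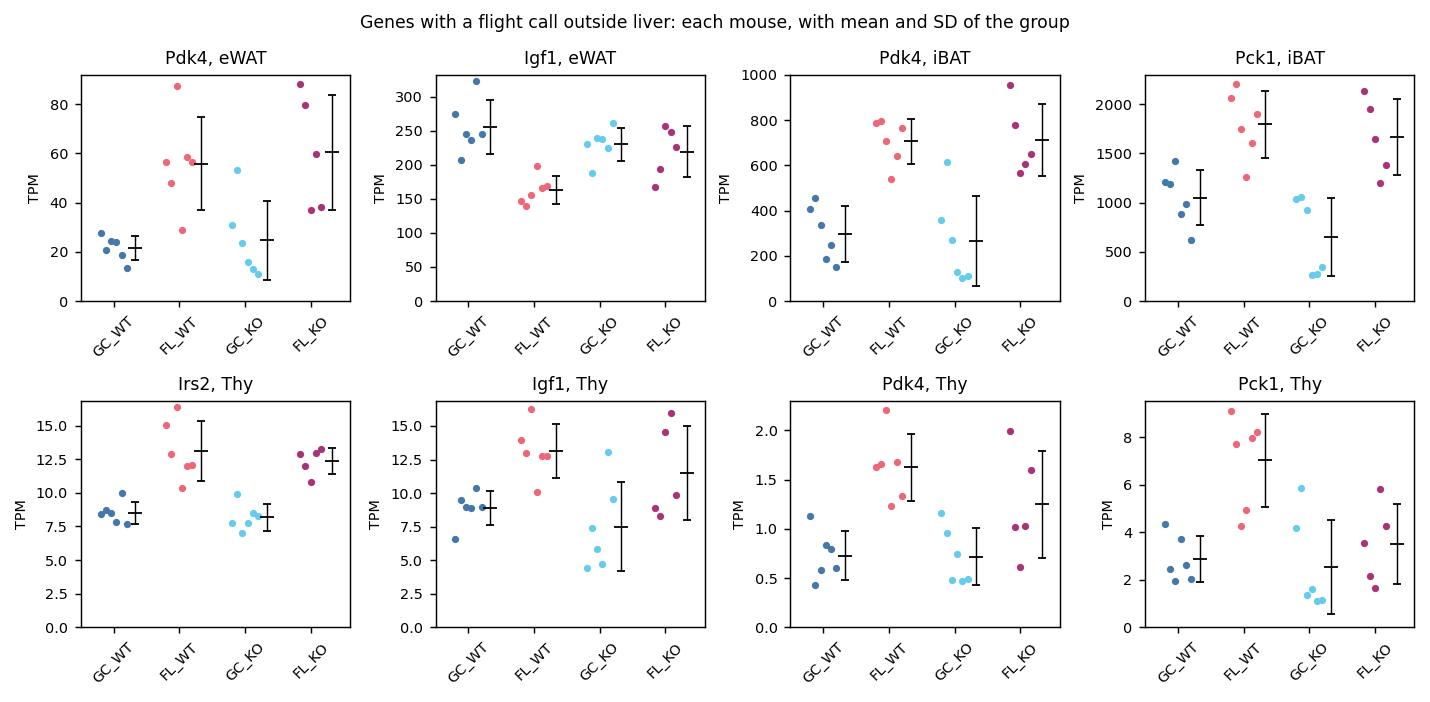
TPM in single mice of the 4 groups for the genes called in eWAT, iBAT and thymus, with the group mean as a black line and its SD as the bar. Pdk4 in eWAT and iBAT and Irs2 in thymus of WT mice show flight and ground ranges apart, and Igf1 in eWAT is lower in all 6 FL_WT mice than in all 6 GC_WT mice.

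The IGF-binding proteins were not called by edgeR in any flight comparison. Igfbp1 in liver ran from 3.65 through 33.28 to 82.19 TPM in GC_WT, from 24.93 through 54.11 to 83.51 in FL_WT, and from 5.15 through 19.62 to 258 in GC_KO. FL_KO livers had 236.3, 155.2, 30.52, 59.84 and 26.48 TPM. The spread inside each group was wider than the differences of 0.44 ± 0.83 in WT and 0.23 ± 0.86 in KO. In kidney Igfbp1 was at 2.02, 3.33 and 3.98 TPM in GC_WT, 1.08, 5.51 and 8.14 in FL_WT, 1.54, 2.46 and 3.02 in GC_KO, and 0.93, 1.01 and 1.13 in FL_KO. The flown knockout kidneys lay below the ground knockout kidneys (-1.26 ± 0.59, edgeR adjusted p = 0.396). Against flown WT kidneys the difference was -2.24 ± 0.56 with an edgeR adjusted p of 0.0707. DESeq2 called it (0.00174), as did edgeR with no filter on low counts (0.00246) and without flight mouse 05 (0.00127). That was 1 of 12 fits with 1 mouse left out, and edgeR with only the 2 groups in the fit did not call it (0.19).

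Igfbp2 in liver ran from 304.6 through 408.2 to 439.7 TPM in GC_WT and from 279.9 through 296.1 to 334.7 in FL_WT, with a little overlap and -0.44 ± 0.14 (edgeR adjusted p = 0.0904). That difference was called by DESeq2 (0.0499), by edgeR with only the 2 groups in the fit (0.0252) and with the mouse number as a block (0.014). These were 3 of 8 alternative settings, and it was called in 0 of 23 fits with 1 mouse left out. Limma on log2(TPM + 1) (0.082) and edgeR with flight mouse 04 included (0.196) or with no filter on low counts (0.154) did not call it. GC_KO livers ran from 328.8 through 443.7 to 598.9 TPM of Igfbp2, and FL_KO livers had 496, 532.6, 431.2, 354.3 and 391.4, with -0.18 ± 0.15. Every FL_KO liver was above every FL_WT liver, and that difference was 0.47 ± 0.15 (adjusted p = 0.0886). In mandible, Igfbp2 was at 53.15, 91.88 and 95.87 TPM in GC_WT and at 120.1, 120.8 and 121.1 in FL_WT, ranges that were apart, with 0.51 ± 0.26 (adjusted p = 0.626). These GC_WT mandibles came from mice 03, 07 and 08 and the FL_WT mandibles from mice 03, 05 and 06.

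Between the genotypes edgeR called no member. GC_KO over GC_WT called 0 of 56 pairs of member and tissue with edgeR (3 had an unadjusted p under 0.05, DESeq2 called 0 and limma 0), with 2.64% of all tested genes called in liver, 1.61% in kidney, 2.74% in eWAT, 2.14% in iBAT, 3.81% in thymus, 1.13% in spleen, 0.836% in cerebrum, 0.198% in TpB and 0.244% in MdB. FL_KO over FL_WT called 0 of 56 with edgeR (7 had an unadjusted p under 0.05). DESeq2 called 2, Igfbp1 in kidney and Igfbp2 in liver. Limma called 1, Igfbp2 in liver, and did not test Igfbp1 in kidney, whose mean was under 5 TPM in every group. The background of FL_KO over FL_WT was 3.65% in liver, 1.83% in kidney, 1.06% in eWAT, 1.5% in iBAT, 2.64% in thymus, 1.16% in spleen, 0.531% in cerebrum, 0.203% in TpB and 0.208% in MdB. The lowest adjusted p was 0.174 on the ground and 0.0707 in flight. Over all genes, an unadjusted edgeR p under 0.05 was met by 2.9% in TpB to 18.8% in thymus on the ground. In flight it was met by 2.3% in TpB to 19.8% in thymus. The difference between the genotypes' flight responses called 0 of 56 with edgeR (6 had an unadjusted p under 0.05) and DESeq2. Limma called 0 of those it tested, and edgeR called 0% of all genes. Over all genes, 1.77% in TpB to 8.43% in eWAT had an unadjusted p under 0.05 for it in edgeR.

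Fbp1 was also counted in tissues that do not make glucose, beside transcripts of hepatocytes. In eWAT of knockouts Fbp1 gave -3.66 ± 1.21 (edgeR adjusted p = 0.0656), and the summed TPM of 5 hepatocyte markers (Alb, Apoa1, Ttr, Serpina1c and Fgb) ran from 15.8 to 988.1 in GC_KO and from 17.8 to 161 in FL_KO. In mandible of WT mice Fbp1 gave 1.84 ± 0.49 (adjusted p = 0.392), with hepatocyte sums of 17.42 to 29.01 in GC_WT and 24.29 to 174.8 in FL_WT. The part of these transcripts in the Fbp1 values was not tested.

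The members were then set beside companion genes of the same pathways. These lists were chosen with earlier results of these data known, so their counts describe the listed genes and are not independent evidence. In liver, 12 fasting and PPAR alpha target genes were tested, and 6 were called higher in flown WT and 8 in flown KO, none lower. Over all liver genes 3.45% in WT and 3.34% in KO were called, in either direction. Their median log2 fold change was 0.654 and 0.675, against 0 and 0.01 over all genes tested. Fgf21, a hormone of the fasted liver, was at 4.56 ± 0.46 in WT and 3.13 ± 0.42 in KO. Cyp4a14, a fatty acid hydroxylase, was at 2.08 ± 0.34 in WT, and Acot1, an acyl-CoA thioesterase, at 1.36 in KO.

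Of 13 glycolytic and lipogenic genes that insulin induces, 2 fell in flown WT livers and 7 in flown KO livers, none rose, and the medians were -0.45 and -0.646. Scd1, the stearoyl-CoA desaturase, was at -1.95 ± 0.23 in WT and -2.75 in KO, and Thrsp at -1.47 ± 0.41 and -2.84. The remaining lists gave few liver calls. Over all liver genes, 16.7% in WT and 15.4% in KO had an unadjusted edgeR p under 0.05. Of 26 further genes of glucose production edgeR called 0 in WT (11 had an unadjusted p under 0.05, DESeq2 called 2 and limma 2) and 1 in KO (Gapdh, -0.36). Of 17 genes of insulin signalling edgeR called 0 in WT (0 with an unadjusted p under 0.05, DESeq2 0 and limma 0) and 1 in KO (Tbc1d4, -0.51). Of 15 genes of the growth hormone and IGF axis 2 fell in WT (Igfbp3, -0.78, and Igfbp7, -0.38), and in KO edgeR called 0 (1 with an unadjusted p under 0.05, DESeq2 1 and limma 0). Of 9 genes around pyruvate dehydrogenase edgeR called 0 in either genotype (3 and 3 with an unadjusted p under 0.05, DESeq2 0 and 0, limma 2 and 2). Of 8 glucocorticoid response genes edgeR called 0 (4 and 1 with an unadjusted p under 0.05, DESeq2 1 and 1, limma 1 and 0), and of 12 clock genes 0 (0 and 1 with an unadjusted p under 0.05, DESeq2 and limma 0).

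In the fats most companion calls were downward. The shares of all genes called there, in either direction, were 13.4% in WT and 7.71% in KO in eWAT, and 19.2% and 33.5% in iBAT. In eWAT 8 of 13 lipogenic genes fell in each genotype (medians -0.731 and -0.934), with Fasn, the fatty acid synthase, at -1.89 in WT and -2.38 in KO. Of 10 genes around pyruvate dehydrogenase, the complex that Pdk4 inhibits, 5 fell in WT and 3 in KO, and none rose. Pdhb, one of its subunits, was at -0.54 and -0.60. In iBAT 8 of 12 lipogenic genes fell in WT, and 10 fell and 1 rose in KO (medians -1.461 and -1.871), with Acly at -3.26 and -4.40. Of the 10 genes around pyruvate dehydrogenase in iBAT, 6 fell in WT, and in KO 6 fell and 1 rose. Mpc1, a subunit of the mitochondrial pyruvate carrier, was at -1.18 and -1.47. Fasting genes rose in 4 of 11 and 2 of 11 in eWAT, among them Angptl4 (0.77 and 1.06). In iBAT 6 of 12 fasting genes rose in WT, and 5 rose and 3 fell in KO. Of 23 further glucose production genes tested in iBAT, 9 fell and 1 rose in WT, and 12 fell and 4 rose in KO, led by enzymes shared with glycolysis such as Eno1 (-1.20 and -1.89).

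In thymus, where 22.8% of all genes were called in WT and 38.2% in KO, 6 of 15 growth hormone and IGF genes rose and 1 fell in WT, and 10 rose and 2 fell in KO, with medians of 0.325 and 0.573. Igfbp5 was at 0.76 and 0.96 and the receptor Igf1r at 0.33 and 0.44. Of 17 insulin signalling genes 2 rose and 4 fell in WT, and 6 rose and 8 fell in KO. In kidney, Cyp4a14 rose in both genotypes (4.42 ± 0.42 in WT and 2.84 in KO), 2 of 11 fasting genes rose in WT and 1 in KO, and edgeR, DESeq2 and limma called 0 of 25 further glucose production genes (3 in WT and 8 in KO had an unadjusted p under 0.05 in edgeR) and 0 of 17 insulin signalling genes (1 and 1). Over all kidney genes, 6.64% in WT and 12.8% in KO had an unadjusted edgeR p under 0.05, and 0.119% and 0.159% were called.

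For Pck1, and for some values of other members, spread inside groups went with the number a mouse carries in the labels. What the number stands for is not given in the sources used here, and the split into numbers 01 to 06 and 07 to 12 was chosen after the values were seen, so it is described with no test. Pck1 in liver had a median of 1652 TPM in ground mice 01 to 06 against 534.8 in ground mice 07 to 12, and 1675 against 586.4 in flight. In eWAT the ground medians were 1470 and 511.5 TPM, with ranges apart, and the flight medians 2124 and 1365. In kidney they were 1469 and 927 TPM on the ground and 2495 and 885.5 in flight, with ranges apart in both. Igfbp1 in liver stood at 65.02 against 13.2 TPM on the ground and 83.51 against 36.24 in flight. Pdk4 in iBAT stood at 382.8 against 139.5 TPM on the ground, with ranges apart, and at 787.7 against 624.9 in flight. In liver Pdk4 went the other way, at 1.315 against 3.22 TPM on the ground and 2.84 against 3.26 in flight, with overlapping ranges. The order turned between ground and flight for Pdk4 in kidney (15.64 against 6.32, then 12.55 against 17.54). It also turned for Irs2 in liver (6.675 against 4.43, then 7.06 against 11.29). The small tissues did not hold both sets evenly. In kidney the FL_KO mice were 01, 02 and 11, the GC_KO mice 02, 11 and 12, and the FL_WT mice 05, 08 and 10. In mandible the FL_WT mice were 03, 05 and 06 and the GC_WT mice 03, 07 and 08. The part of the number sets in the group differences of kidney and mandible was not tested.

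Fbp1 and G6pc had closer medians in the 2 sets. Fbp1 in liver of ground mice had medians of 758.6 and 703.4 TPM, and G6pc 201.4 and 174.3. Genes with a daily rhythm, picked after their values were seen, followed it in liver. The clock output gene Dbp had ground medians of 29.83 and 5.38 TPM, Nr1d1 18.5 and 1.355, and Arntl the reverse, 6.085 and 18.23, each with ranges apart. In flown livers the medians were 24.3 and 5.295 TPM for Dbp and 6.44 and 20.19 for Arntl, with overlapping ranges, and 17.97 and 3.24 for Nr1d1, with ranges apart. Fkbp5, a glucocorticoid target, had 74.22 and 30.59 TPM on the ground and 96.75 and 37.98 in flight. The part of time of dissection, or of any other order, in the members' values was not tested.

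**Figure D5:**
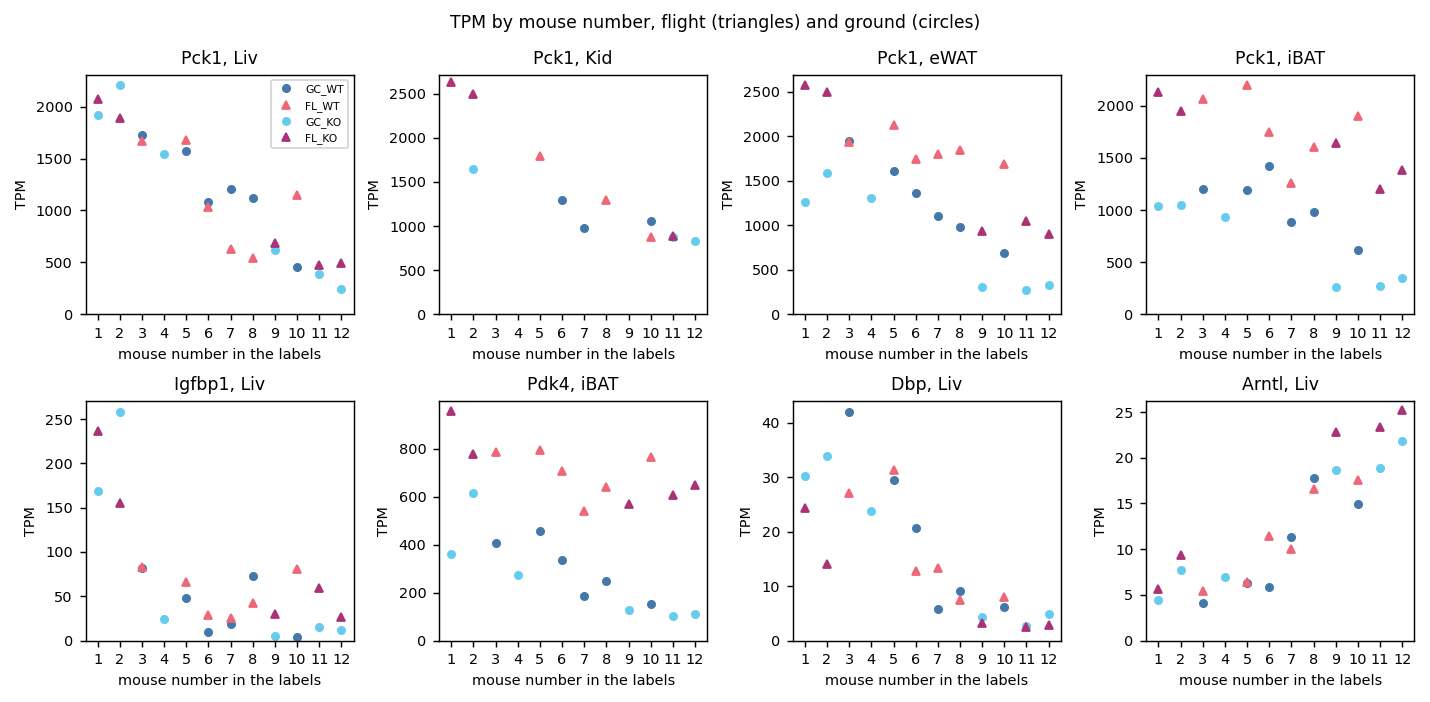
TPM against the mouse number in the labels for Pck1 in 4 tissues, Igfbp1 in liver, Pdk4 in iBAT and the clock genes Dbp and Arntl in liver, circles for ground and triangles for flight. Pck1 and Dbp have higher medians in mice numbered 01 to 06 and Arntl in mice numbered 07 to 12, with some overlap in flight.

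A mouse with much Pck1 in 1 tissue had much in others. Over 23 mice, the deviations of log2(TPM + 1) from group means correlated between liver and eWAT with Pearson's r of 0.88 and Spearman's rho of 0.87 (permutation test, adjusted p = 0.00045 and 0.00087 over 20 relations), 0.856 without the 2 mice farthest from the median. Within the sets of mouse numbers r was 0.488. Liver and iBAT gave 0.846 and 0.874 (permutation test, adjusted p = 0.00045 and 0.0007), 0.823 without 2 mice and 0.424 within sets. The fats gave 0.908 and 0.917 (permutation test, adjusted p = 0.00045 and 0.0007), 0.872 without 2 mice and 0.334 within sets. Pdk4 correlated between eWAT and iBAT at 0.801 and 0.735 (permutation test, adjusted p = 0.00045 and 0.0045), 0.678 without 2 mice and 0.564 within sets. Over 12 mice Pck1 in liver and kidney gave 0.76 and 0.832, which missed the threshold after adjustment (permutation test, 0.07 and 0.076), and -0.634 within sets. Pck1 in kidney with eWAT and with iBAT passed on r (0.789 and 0.709, permutation test, adjusted p = 0.03 and 0.039), with -0.034 and -0.528 within sets. In every kidney group, however, a number set held a single mouse, which carries no information within its set. The within-set values with kidney rest on pairs of mice only and cannot be compared with those over 23 mice. Of the 20 relations 10 passed on r and 7 on rho, and within sets r was lower in 15 and higher in 5, those with kidney included. Igf1 in liver and iBAT went from 0.521 to 0.822, and Igf1 in liver and eWAT from 0.01 to 0.774. Flight and ground mice differed in these relations, with deviations taken from group means and not within sets. For Igf1 in liver and eWAT r was -0.776 over 11 flight mice and 0.854 over 12 ground mice. For Igf1 in liver and iBAT it was -0.013 and 0.9.

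Genes whose log2(TPM + 1) followed a member most closely over the 23 livers are named as a description, by Pearson's r of their values. For Pck1 they were Cebpb (0.945), Ndel1 (0.935) and Slc25a51 (0.929), and for G6pc Slc25a25 (0.907), Sik1 (0.839) and Arl4d (0.818). Fbp1 was followed by Qdpr (0.856), Gls2 (0.853) and Gnmt (0.852), and Igfbp1 by Sesn2 (0.883), Irf2bp2 (0.875) and Jmy (0.841). Irs2 was followed by Pex6 (0.848), Arrdc4 (0.839) and Foxk1 (0.799), and Igfbp2 by Prodh (0.828). The 23 values of each gene share libraries and dissection, so they are not independent evidence of a link.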

How the data were processed

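RNA-seq of 9 tissues of WT and Nrf2-KO mice, flown or kept on the ground, was analysed from the deposited gene table. Libraries were strand-specific, from poly(A) RNA except in thymus, where ribosomal RNA was removed. Per the submitters' processing notes the authors used bcl2fastq, STAR 2.6.1 and RSEM 1.3.1 on mm 10. The deposited values used are RSEM expected counts, which are not normalized, and TPM, scaled by the authors per transcript length and library. The 192 FPKM columns were not used. Samples were grouped by their labels. A number occurs once in flight and once on the ground, on 2 separate animals.

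Expected counts were rounded and fitted per tissue over all 4 groups with edgeR 4.0.16 in R 4.3.3 (TMM scaling, filterByExpr, quasi-likelihood F-test, Benjamini-Hochberg over all genes tested in the tissue). The fits were tested on simulated data. SEs were the log2 fold change divided by the root of F. P-values measure the spread between mice. As alternatives the contrasts were refitted with DESeq2 1.42.0, with limma 3.58.1 for genes of at least 5 TPM in a group on log2(TPM + 1) and log2(TPM + 0.1), RLE scaling, no filter on low counts, flight mouse 04 included, only the groups compared, library set as a term in TpB, mouse number as a block, and leaving out each mouse. Leaving out libraries rich in Acta1 or Alb (over 100 TPM) and 54 of the 130 fits without 1 mouse were added after the data had been seen. Correlations used 100000 permutations in Python 3.11.15.

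The members and the companion lists were chosen with earlier results of these data known. Of each companion list at most 4 called genes are named per tissue and contrast, those of smallest adjusted p, and of like-patterned genes the 3 with the highest r, the clock and glucocorticoid genes of the mouse number description excepted. Promoter windows are RefSeq GRCm38.p6 sequences of 250 bases or fewer, and gene positions are from GENCODE on GRCm38.

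In knockout livers the deviations from group means of same-numbered flight and ground mice correlated above 0.1 in 5 of 5 pairs (0.301 to 0.496). Only 2 of the 5 flown livers correlated best with the ground liver of their own number, so pairing by number was not shown. The main test did not pair mice. With the mouse number as a block, an alternative, Fbp1 in knockout liver stayed called (-0.48 ± 0.101, edgeR adjusted p = 0.0169).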

Additional observations from a re-analysis of the deposited data

Results flagged for a closer look

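In 12 of 112 groups of 4 to 10 mice, 1 mouse stood apart from the others of its group by Dixon's 95% criterion, which chance meets in about 1 group in 20. Fbp1 in liver stood out in ground WT mouse 08 (980.2 TPM). Pdk4 in TpB stood out in flown knockout 02 (170.6 TPM). Irs2 stood out in eWAT of flown knockout 09 (23.38 TPM, low), in iBAT of flown WT mouse 03 (33.69 TPM), and in iBAT and cerebrum of ground WT mouse 03 (26.43 and 56.99 TPM). Igf1 stood out in TpB of flown WT mouse 08 (54.98 TPM) and ground knockout 01 (49.01 TPM), and in iBAT of flown knockout 11 (21.06 TPM) and flown WT mouse 05 (21.35 TPM). Igfbp2 stood out in TpB of flown WT mouse 08 (272.1 TPM) and in cerebrum of ground WT mouse 08 (49.62 TPM, low).

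Flight mouse 04, the knockout with an intestinal hemorrhage that was left out, was above every other mouse of the tissue for 3 members. Pdk4 stood at 205.2 TPM in TpB, 133.3 TPM in eWAT and 1030.0 TPM in iBAT of this mouse, Igfbp1 at 362.4 TPM and Igfbp2 at 741.2 TPM in its liver.

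In mandible, Fbp1 was higher by 1.07 TPM in flown WT mice, with ground mice at 0.33 to 0.43 TPM and flown mice at 0.69 to 2.02 TPM, and lower in flown knockouts, with ground mice at 0.4 to 0.63 TPM and flown mice at 0.16 to 0.26 TPM. Every mouse followed the direction of its genotype. The interaction was -3.10 ± 0.85 with an edgeR adjusted p of 0.9325, so the difference between genotypes was not called, and it rests on few counts.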

How the results depend on the processing

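No value changed direction while called. The counts of members called moved most in the fats. FL_WT over GC_WT called 5 and gave 3 with flight mouse 04 included, 8 with only the groups compared and 4 to 6 with 1 mouse left out. FL_KO over GC_KO called 6 and gave 3 with only the groups compared and 4 to 7 with 1 mouse left out. FL_KO over FL_WT called 0 with edgeR and gave 2 with DESeq2, and 1 with each of limma on log2(TPM + 1), limma on log2(TPM + 0.1), flight mouse 04 included and no filter on low counts, and 0 to 1 with 1 mouse left out (Igfbp1 in kidney without flight mouse 05, Fbp1 in MdB without flight mouse 06). GC_KO over GC_WT called 0 and gave 1 with no filter on low counts (Irs2 in kidney) and 0 to 1 with 1 mouse left out. The interaction gave 0 in every setting. Of 224 combinations of member, tissue and contrast, 199 were called in no setting and 25 in at least 1. Calls gained in edgeR by leaving out 1 mouse were, beside those in the report, Fbp1 in knockout eWAT (without flight mouse 05 or ground mouse 04 or 12, adjusted p from 0.0275 to 0.0445), Igf1 in WT thymus (without flight mouse 02 or 07, 0.0461 and 0.0441), Pdk4 in knockout thymus (without ground mouse 01, 0.0422), Pdk4 in WT iBAT (without ground mouse 02, 0.0496) and Irs2 in kidney for GC_KO over GC_WT (without ground mouse 07, 0.0427).

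With the mouse number as a replicate block, FL_WT over GC_WT gave 8 calls and FL_KO over GC_KO 10. The calls gained by edgeR were Igfbp2 in WT liver (adjusted p = 0.014), Pdk4 in WT iBAT (0.0133), Igf1 in WT thymus (0.0392), Pck1 (1.36, 0.00302), Fbp1 (0.0172) and Irs2 (0.0471) in knockout eWAT, and Irs2 in knockout iBAT (1.81, 0.0147). Outside knockout liver, same-numbered mice did not correlate above 0.1 in every pair of any tissue and genotype fitted with this block. Above 0.1 lay 4 of 6 pairs in WT liver (0.021 to 0.409), 4 of 5 in knockout eWAT, 4 of 5 in knockout iBAT and 1 of 5 in knockout thymus. In knockout kidney and mandible, where the block was not fitted, 2 of 2 pairs lay above it (0.119 to 0.254 and 0.15 to 0.237). The block stands as an alternative only, in knockout liver as well. It changed no member call in knockout liver. Where a setting changed a call, the cause was not tested. Depth limits Igfbp1 and Fbp1 outside liver and kidney, where a library holds few counts, and 3 mice per group limit kidney and MdB.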
